A study of Mus musculus with 8 samples.

Results

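The 41 genes described here encode the machinery with which a cell makes secreted and membrane proteins in the endoplasmic reticulum (ER) and answers an overload of it. They were chosen by symbol, with earlier results of these data known, and all 41 had a row among the 23234 genes of the expression table. By role they are 15 genes of protein folding, 8 of ER-associated degradation (ERAD), 2 stress sensors, 11 of translocation into the ER, 3 of the oligosaccharyltransferase (OST), 1 of the COPII coat and 1 secreted cargo, the J chain gene Igj. Expression was measured as FPKM (sequenced fragments divided by transcript length in kilobases and by library size), so levels can be compared between genes of different length.

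A protein bound for secretion enters the ER through the Sec61 channel, loses its signal peptide, receives a glycan from the OST and folds with the help of lumenal chaperones and disulfide isomerases. Chains that fail to fold are drawn back to the cytosol and degraded by ERAD. When unfolded proteins pile up, the sensors IRE1 (Ern1), ATF6 and PERK (Eif2ak3) start the unfolded protein response, whose transcription factors, spliced XBP1 and cleaved ATF6, raise many of the genes listed here, and B cells that become plasma cells expand this machinery to secrete antibody.

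The libraries came from germinal centre B cells of C57BL/6 mouse origin, the cells that mutate and test their antigen receptor in a cycle between a dark zone (DZ) of division and a light zone (LZ) of selection. Every donor cell carried Prdm1(f/f), ERT2cre(KI/+) and B1-8hi(KI/+), that is, a floxed gene for the plasma cell factor Blimp1, a Cre recombinase that tamoxifen activates, and a heavy chain that binds the hapten NP. The groups differed in Bach2, which encodes a transcriptional repressor that acts in cells of the B lineage, and in zone. Libraries labelled Bach2(+/+) are called sKO and those labelled Bach2(f/f) dKO, each from LZ and from DZ, with 2 libraries in each of the 4 groups and 8 in all. Naive donor B cells went into wild-type recipients, which received 3 mg tamoxifen for 3 days and then NP-CGG in alum. On day 10, donor NP+ GL7+ CD38- cells from the pooled spleens of 5 recipients were sorted as LZ (CD86hi CXCR4lo) or DZ (CD86lo CXCR4hi), about 30000 cells a library. The floxed Prdm1 alleles were common to all 4 groups, and cells with wild-type Prdm1 were not analysed here. Nothing in the labels says whether the 2 libraries of a group came from separate pools, and p-values then measure only the spread between these libraries, which may be technical.

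Bach2 itself was at 49.8 and 53.4 FPKM in sKO LZ and at 64.5 and 62.7 in dKO LZ, and at 76.2 and 74.6 in sKO DZ and 96.2 and 94.5 in dKO DZ. It was thus higher in both zones of the libraries labelled Bach2(f/f) (adjusted p = 0.00454 in LZ and 0.00894 in DZ, limma). A gene total also counts exons that Cre leaves in place, so it does not check the deletion, and every direction below is between labelled groups. Of 7 DZ marker genes 7 were lower in LZ in both genotypes, and of 7 LZ marker genes 5 were higher in sKO and 6 in dKO. Of all genes tested, 15.2% were higher and 16.1% lower in LZ in sKO, and 18% and 16.1% in dKO. The marker lists include Cd86 and Cxcr4, whose products set the sort, so the direction of these genes largely followed from the gate. Of 11 T cell genes, Lck held nearly the whole sum (32.7 to 64.6 FPKM), and 7 NK cell genes summed to at most 3.07 FPKM. Relative depth, read from the spacing of low values, was 1.43 times higher in DZ than in LZ libraries, and replicates correlated at Pearson r of 0.981 to 0.985 across genes.

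Together the 41 genes held 0.556% and 0.554% of the summed FPKM in sKO LZ cells, and 0.655% and 0.655% in dKO LZ cells. In DZ the shares were 0.4997% and 0.487% in sKO and 0.529% and 0.534% in dKO. The pairs of libraries did not overlap between any 2 groups, and dKO LZ was the highest. The 15 folding genes made most of the difference between groups, with summed levels of 1433 and 1386 FPKM in sKO LZ, 1814 and 1807 in dKO LZ, 936 and 933 in sKO DZ and 1047 and 1024 in dKO DZ. The 8 ERAD genes summed to 420.4 and 409.7 FPKM in sKO LZ and to 420.8 and 422.6 in dKO LZ, a gap between genotypes smaller than that between the sKO replicates. In pooled RNA such as this, fewer cells of a type and less RNA per cell cannot be told apart.

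**Figure D1:**
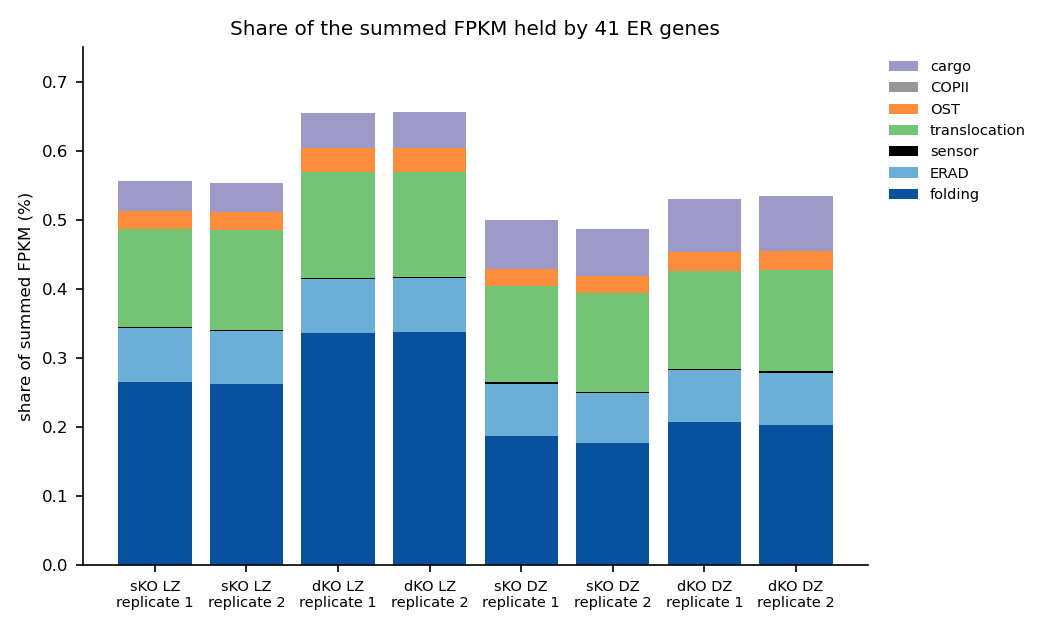
Share of each library's summed FPKM (%, vertical axis) held by the 41 genes, stacked by role, for the 8 libraries. The dKO LZ bars reach 0.655% against 0.556% and 0.554% in sKO LZ, mainly through the folding genes at the base.

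The levels spanned a wide range. Igj (315 FPKM as the mean of the 8 libraries), the lectin chaperone gene Calr (262), the chaperone gene Hspa5 (207) and the disulfide isomerase gene Pdia3 (186) were highest, and the sensor gene Ern1 and the COPII gene Sec24d, which encodes a cargo adaptor of transport vesicles, were lowest. Ern1 was at 0.378 and 0.578 FPKM in sKO LZ, 0.412 and 0.812 in dKO LZ, 0.666 and 0.604 in sKO DZ and 0.624 and 0.706 in dKO DZ. It stayed below the filter of 1 FPKM in 2 libraries and was not tested, which leaves 40 genes of the set among 10610 tested genes.

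Several of these genes share a promoter element, which is shown here because its holders include the chaperone genes that lead the results. The ER stress element (ERSE) is a CCAAT box, bound by NF-Y, followed after 9 bases by CCACG, the part read by ATF6 and XBP1. RefSeq promoters (GRCm38.p6, 250 bases before to 50 after the start site; the expression table is on mm9) were found for 33 of the 41 genes, Igj under the name Jchain. With both strands searched, 9 of the 33 (27.3%) held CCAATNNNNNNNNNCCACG: Hspa5, Hsp90b1, Calr, Canx, Pdia6, Creld2, Derl3, Syvn1 and Dnajc3. The share was 0.178% of the 8410 tested genes with a promoter, genes of the set among them, and 0.119% of all 32851 promoters. Of 83 other secretory pathway genes with a promoter, 1 (1.2%) held it. The set was chosen as genes of this response, so its share describes the genes and is no test. The shorter form ERSE-II, ATTGGNCCACG, stood in Herpud1 and Dnajb11 (6.06%, against 0.0951% of tested genes and 0.0365% of all promoters). No match in this window says only that these letters are not there.

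The ERSE stretches of the 6 genes that hold one and rose in dKO LZ cells are written 5′ to 3′ along the gene's own strand, with the CCAAT and CCACG boxes (ATTGG and CGTGG where the element lies on the other strand) in capitals. They lie at chr2:34772015-34772053 (plus strand, Hspa5), chr10:86705523-86705666 (minus, Hsp90b1), chr8:84847065-84847103 (minus, Calr), chr11:50325790-50325828 (minus, Canx), chr12:17266481-17266519 (plus, Pdia6) and chr15:88819510-88819548 (plus, Creld2), each upstream of the start site.
Hspa5: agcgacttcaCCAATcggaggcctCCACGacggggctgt
Hsp90b1: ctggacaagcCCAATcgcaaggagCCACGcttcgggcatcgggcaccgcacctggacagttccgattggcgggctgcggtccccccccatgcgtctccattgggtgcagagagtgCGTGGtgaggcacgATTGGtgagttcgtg
Calr: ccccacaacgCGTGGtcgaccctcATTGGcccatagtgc
Canx: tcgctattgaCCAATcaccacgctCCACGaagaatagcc
Pdia6: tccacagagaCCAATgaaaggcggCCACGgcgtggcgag
Creld2: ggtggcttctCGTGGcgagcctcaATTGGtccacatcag
Hsp90b1 held 2 matches in opposite orientation, at -212 to -194 and at -107 to -89 from the start site, and the match of Hspa5 was the closest to the start of these 6, at -65 to -47.

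**Figure D2:**
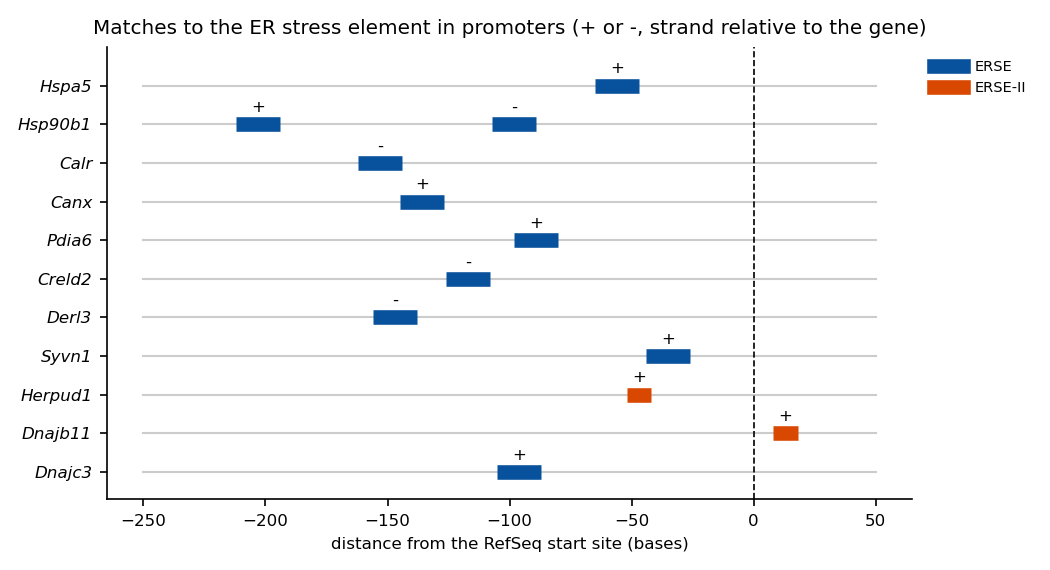
Position of each ERSE (blue) and ERSE-II (orange) match in the promoters of the 11 genes that hold one, as distance in bases from the RefSeq start site, with the strand relative to the gene above each bar. The ERSE matches all lie upstream of the start site, 2 of them in Hsp90b1, and the ERSE-II match of Dnajb11 lies at 8 to 18 bases after it.

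In LZ cells, 24 of the 40 genes rose in dKO and 0 fell, with a median change of 0.23 on the log2(FPKM + 1) scale against 0.022 over all 10610 genes. Of all genes 18.4% rose and 12.7% fell (limma, Benjamini-Hochberg adjusted p under 0.05), so the count of higher genes lay above the background and that of lower genes below it. Because the genes were chosen with earlier results of these data known, this contrast describes them and is no independent test. At an unadjusted p under 0.05, 25 were higher and 1 lower, against 25.1% and 18.4% of all genes. Folding genes (13 of 15) and OST genes (3 of 3) took the largest part, while 2 of 8 ERAD genes and 4 of 11 translocation genes rose. By level alone, 32 of the 41 genes had both dKO LZ libraries above both sKO LZ libraries and 5 had both below, against 36.5% and 29.4% of the genes tested.

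Among the folding genes, Sdf2l1, a partner of the chaperone complex around BiP, had the largest rise. It was at 42.6 and 44.9 FPKM in sKO LZ and at 65.7 and 63.8 in dKO LZ (0.56 ± 0.089, SE; adjusted p = 0.00578, limma). Hsp90b1, which encodes the ER chaperone GRP94, was at 130.0 and 132 in sKO LZ and at 185 and 189.6 in dKO LZ (0.51 ± 0.033; adjusted p = 0.000884, limma). Both genes separated the genotypes with a gap wider than the distance between replicates. Pdia6, a disulfide isomerase gene, went from 113 and 114 to 158 and 152 (0.44 ± 0.055; adjusted p = 0.00267, limma). Manf, which encodes a stress-induced cofactor of BiP, went from 43.5 and 42.7 to 57.9 and 56.0 (0.39 ± 0.052; adjusted p = 0.00308, limma). Hspa5, which encodes BiP, the main ER chaperone, was at 247 and 217 in sKO LZ and at 300.04 and 307 in dKO LZ, 1.31-fold higher (0.39 ± 0.093; adjusted p = 0.022, limma). Its 2 sKO libraries lay further apart than those of the other leading genes, yet below both dKO libraries. The call for Hspa5 was lost without sKO LZ replicate 2 (adjusted p = 0.0916), without dKO LZ replicate 1 (0.0813) or replicate 2 (0.096), and with quantile normalization (0.0753), all by limma.

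The lectin chaperones that hold glycoproteins during folding also rose: Canx from 89.8 and 87.6 FPKM in sKO LZ to 118 and 114 in dKO LZ, and Calr from 289 ± 2.28 to 357 ± 4.27 (mean ± SD, n = 2). Their partner, the isomerase gene Pdia3, went from 206 ± 3.38 to 259 ± 6.31. P4hb, the classical disulfide isomerase gene, changed by 0.35 ± 0.050, Creld2 by 0.36 ± 0.082, Hyou1, which encodes the nucleotide exchange factor of BiP, by 0.34 ± 0.046, the co-chaperone gene Dnajb11 by 0.24 ± 0.047 and Pdia4 by 0.18 ± 0.047 (adjusted p between 0.00161 and 0.0277 over these 8 genes, limma). The genotypes did not overlap in any of these 8, all of them past the threshold. Of all genes tested, 36.5% also had both dKO LZ libraries above both sKO LZ libraries. Of the folding calls, Creld2, Dnajb11 and Pdia4 also depended on single libraries, and Pdia4 on the scaling as well. With upper quartile scaling, quantile normalization and equal totals, adjusted p for Pdia4 was 0.104, 0.121 and 0.0667 (limma). By limma, adjusted p reached 0.0905 for Creld2 and 0.0747 for Dnajb11 without dKO LZ replicate 1. Without sKO LZ replicate 2, it was 0.0799 and 0.0502 for them, and without dKO LZ replicate 2 it was 0.0656 for Creld2. For Pdia4 it was 0.068 to 0.128 without any single LZ library.

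Dnajc3 and Dnajb9, co-chaperone genes of BiP, were the 2 folding genes that did not pass. Dnajc3 was at 20.1 ± 0.322 and 19.3 ± 0.584 FPKM in sKO and dKO LZ (adjusted p = 0.432, limma). Dnajb9 was at 24.1 and 11.3 in sKO LZ, 14.1 and 13.1 in dKO LZ, 20.1 and 10.1 in sKO DZ and 9.75 and 12.8 in dKO DZ. Replicate 1 of sKO was about as far above replicate 2 in both zones, by 1.02 in LZ and 0.93 in DZ on the log2 scale, where the median gene differed by 0.098 and 0.085. Ppp1r15a, a phosphatase subunit gene of the stress response that is not in the set, was at 51.2 and 15.1 in sKO LZ and at 47.7 and 16.5 in sKO DZ. Without both sKO replicate 1 libraries, a comparison added after the data were seen, 20 genes of the set rose in LZ and 0 fell.

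All 3 OST genes, which encode subunits of the enzyme that attaches N-glycans, rose in dKO LZ cells. Rpn1 was at 44.8 and 41.7 FPKM in sKO LZ and at 61.5 and 59.7 in dKO LZ, 1.40-fold higher (0.48 ± 0.046; adjusted p = 0.0014, limma). Rpn2 went from 53.5 and 49.5 to 70.6 and 70.6 (0.45 ± 0.049; adjusted p = 0.00193, limma), and Ddost changed by 0.33 ± 0.047. In each of the 3 the dKO LZ libraries were highest of the 8.

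The translocation genes moved less. Sec61a1, which encodes the pore of the channel, was at 44.9 and 44.9 FPKM in sKO LZ and at 53.0 and 52.8 in dKO LZ (0.23 ± 0.040; adjusted p = 0.00741, limma), while the small channel subunits Sec61b and Sec61g did not pass (adjusted p = 0.393 and 0.357, limma). Of the 4 TRAP genes, which encode a complex beside the channel, Ssr2 rose (0.28 ± 0.067; adjusted p = 0.0219, limma), whereas Ssr4 (0.25 ± 0.11; 0.119), Ssr1 (0.11 ± 0.042; 0.102) and Ssr3 (0.12 ± 0.054; 0.142) did not pass. Of the 4 signal peptidase genes, Spcs2 and Spcs3 rose (0.14 ± 0.039 and 0.18 ± 0.054; adjusted p = 0.0324 and 0.0472, limma) and Spcs1 did not (0.10 ± 0.051; 0.181). Sec11c, a catalytic subunit gene of the same enzyme, was at 127 and 131 in sKO LZ and at 115 and 115 in dKO LZ, below it in both libraries (-0.16 ± 0.054; adjusted p = 0.0668, limma). Other scalings called Sec11c lower in LZ, with an adjusted p of 0.0257 (upper quartile) or 0.0409 (equal totals). With quantile normalization it was lower too (0.00899), as were Herpud1 (0.0187) and Syvn1 (0.0427), all by limma. The rises of Spcs2 and Spcs3 did not pass with upper quartile scaling (0.153 and 0.0864) or quantile normalization (0.282 and 0.131), also by limma. Adjusted p for Ssr2 was 0.0552 or 0.0824 when either sKO LZ library was left out and 0.106 when dKO LZ replicate 1 was. For Spcs3 it was between 0.0516 and 0.217 whichever of the 8 libraries was left out. For Spcs2 it was 0.103 without sKO LZ replicate 1, 0.104 and 0.144 without the dKO LZ libraries, and 0.0619 without either dKO DZ library. Ssr4 passed without dKO DZ replicate 1 (0.0287) or replicate 2 (0.0286).

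Of the ERAD genes, Derl1, a subunit gene of the retrotranslocation channel, was at 41.9 and 40.8 FPKM in sKO LZ and at 51.8 and 51.2 in dKO LZ (0.31 ± 0.037; adjusted p = 0.00227, limma). Sel1l, which scaffolds the ubiquitin ligase complex, went from 20.5 ± 0.132 to 23.8 ± 0.677 (0.20 ± 0.046; adjusted p = 0.0188, limma). Its call ended without sKO LZ replicate 2 (0.0647) and without either dKO LZ library (0.0556 and 0.101). The ligase gene itself, Syvn1, was at 135 ± 7.51 and 128 ± 0.129 and did not pass (adjusted p = 0.312, limma). Neither did the scaffold gene Herpud1 (104 and 102 in sKO LZ, 99.7 and 100.1 in dKO LZ; adjusted p = 0.445, limma), the mannosidase-like genes Edem1 and Edem2 (0.266 and 0.292), Derl2 (0.803) or Derl3 (0.978).

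The sensor gene Atf6 was at 8.91 and 8.98 FPKM in sKO LZ and at 11.4 and 11.2 in dKO LZ, 1.26-fold higher (0.31 ± 0.057; adjusted p = 0.00954, limma; 0.056 without dKO LZ replicate 1). Igj, whose product joins the units of secreted IgM and IgA, was at 238 and 229 in sKO LZ and at 275 and 276 in dKO LZ (0.24 ± 0.038; adjusted p = 0.00549, limma). Neither gene's genotypes overlapped, and 36.5% of all genes tested were likewise separated upward in LZ. Sec24d was at 1.13 ± 0.054 and 1.23 ± 0.0321 (adjusted p = 0.667, limma).

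**Figure D3:**
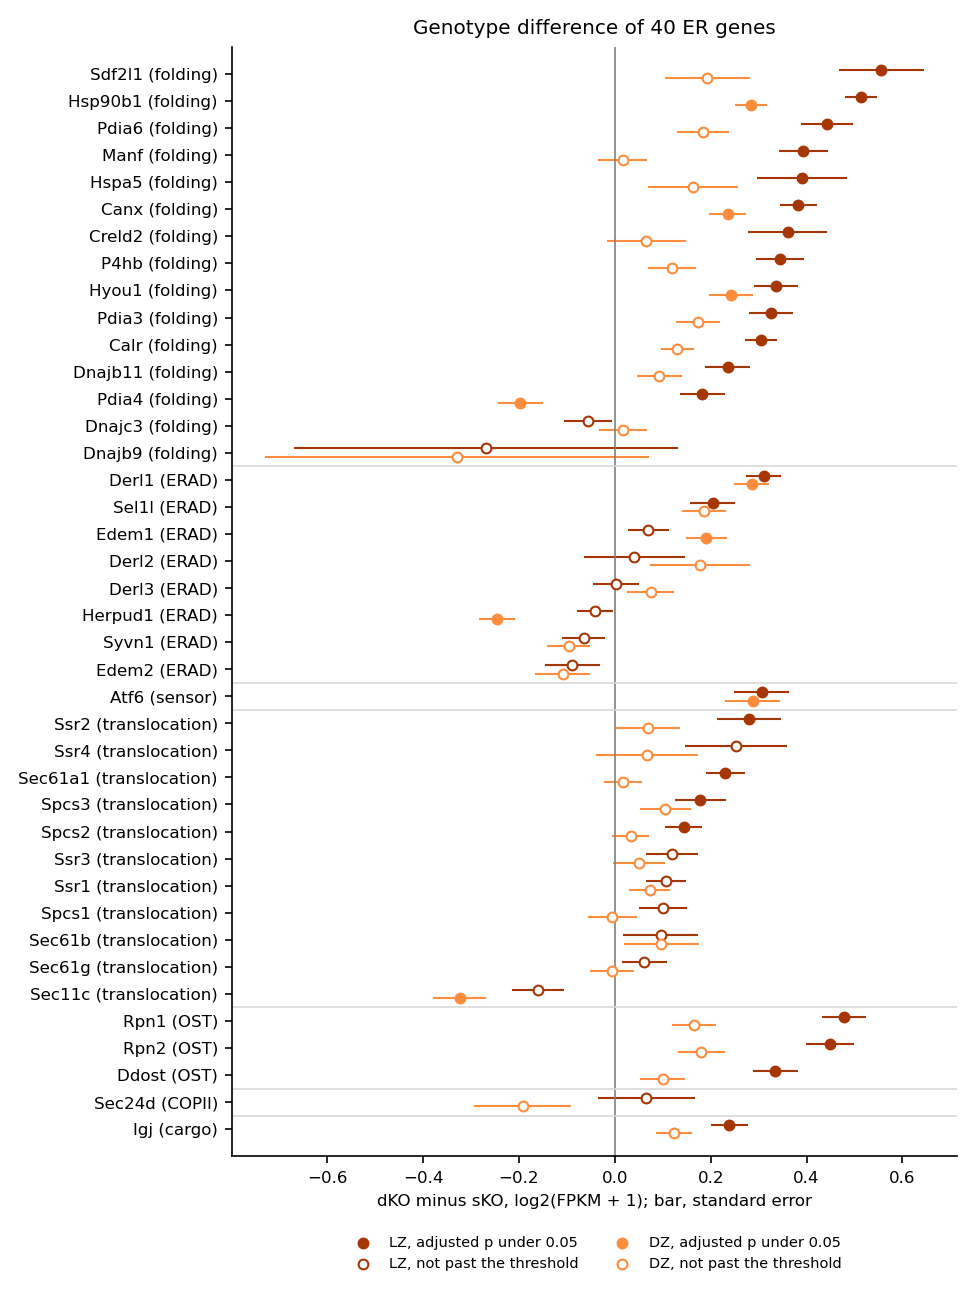
Difference between dKO and sKO on the log2(FPKM + 1) scale (horizontal axis, with the standard error) for the 40 tested genes in LZ (dark) and DZ (light), grouped by role; filled points passed an adjusted p of 0.05. In LZ 24 points are filled and all lie to the right of 0, and in DZ 6 are filled to the right and 3 to the left.

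Of the 24 LZ calls, 15 held under every alternative and without each library in turn: Hsp90b1, Calr, Canx, Pdia3, Pdia6, P4hb, Manf, Sdf2l1, Hyou1, Derl1, Sec61a1, Rpn1, Rpn2, Ddost and Igj. Without dKO LZ replicate 1 the median change of the set was 0.22, against 0.019 over all genes, and fewer genes passed in both. Over all genes the share of higher among called genes was 59.05%, and 48.1% with upper quartile scaling, under which 21 genes of the set rose and 1 fell.

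Cell type markers were read in the same libraries. Of 11 germinal centre B cell genes, 1 rose and 5 fell in dKO LZ and 1 rose and 3 fell in dKO DZ. These are 9.09% and 45.5% in LZ, against 18.4% and 12.7% of all genes, and 9.09% and 27.3% in DZ, against 6.63% and 5.23%. Cd79a and Cd79b, which encode the signalling chains of the antigen receptor, fell in both zones. The highest change of the list was 0.31 in LZ and 0.25 in DZ, with 4 and 3 genes above 0. The 11 genes summed to 4305 and 4418 FPKM in sKO LZ, 3858 and 3840 in dKO LZ, 3901 and 4077 in sKO DZ and 3563 and 3589 in dKO DZ, so the genotypes did not overlap in either zone. Of 14 plasma cell genes in the table, 8 were tested, and 2 rose and 1 fell in dKO LZ, shares near those of all genes. Their summed level, carried mostly by 2010001M09Rik (Mzb1), was 511 and 483 FPKM in sKO LZ, 569 and 556 in dKO LZ, 579.5 and 632 in sKO DZ and 661 and 648 in dKO DZ, so every DZ library was above every LZ library. In DZ 1 of the 8 rose in dKO and 2 fell (12.5% and 25%, against 6.63% and 5.23% of all genes). Changes of the 8 ran from -1.70 to 0.73 in LZ, with 7 above 0 and 1 below. In DZ they ran from -1.13 to 0.29, with 4 above 0 and 4 below. Some defining genes lay near the floor, with all values given next below 1 FPKM. Tnfrsf17 was listed at 0 in all 8 libraries. Sdc1 was at 0.0666 and 0.0637 in sKO LZ and 0.606 and 0.505 in dKO LZ, Fkbp11 was listed at 0 in every library but the dKO LZ ones (0.812 and 0.677), and Prdm1, floxed in every group, was at 0.0577 and 0.0184 in sKO LZ and 0.980 and 0.967 in dKO LZ. In DZ Prdm1 was at 0.0473 and 0.122 in sKO and 0.258 and 0.434 in dKO. It was under the filter and not tested, and as for Bach2 its gene total does not check the deletion. The 15 myeloid genes summed to 19.4 and 68.8 in sKO LZ, 31.3 and 163 in dKO LZ and between 6.45 and 10.8 in DZ, overlapping between the genotypes in LZ, with C1qb listed at 0 in all 8 libraries and Elane in all but dKO LZ replicate 2. Of the 8 tested myeloid genes, 7 lay higher in dKO LZ and 1 lower, with a median change of 0.94. Past the threshold, 1 of the 8 rose and 1 fell (12.5% each, against 18.4% and 12.7% of all genes). Without dKO LZ replicate 2, the library highest in myeloid genes, the median LZ change of the set was 0.23, against 0.027 over all genes. The part of any of these markers in the changes was not tested.

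In DZ cells, 6 of the 40 genes (15%) rose in dKO and 3 (7.5%) fell, against 6.63% and 5.23% of all genes tested. The share of lower genes was thus near the background. The median of the 40 genes was 0.095, and 0.014 over all genes. By level, 24 of the 41 had both dKO libraries above both sKO libraries and 6 below, against 32.3% and 26.3% of genes tested. At an unadjusted p under 0.05, 13 were higher and 3 lower, against 15.9% and 12.2% of all genes. Over all genes the share of higher among called genes was 55.9%, 45.8% with upper quartile scaling and 66.9% after scaling to equal totals.

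The 6 that rose came from folding, ERAD and the sensors. Atf6 was at 7.52 and 6.86 FPKM in sKO DZ and at 9.01 and 8.98 in dKO DZ (0.29 ± 0.057; adjusted p = 0.0262, limma). Derl1 went from 45.6 and 47.1 to 57.0 and 56.5 (0.29 ± 0.037; adjusted p = 0.00856), and Hsp90b1 from 71.9 and 71.0 to 87.5 and 86.8 (0.28 ± 0.033; adjusted p = 0.0071, limma). The genotypes did not overlap in these 3 genes, as in 32.3% of all genes tested in this direction, and the dKO replicates were close to each other. Hyou1 was at 20.5 and 19.6 in sKO DZ and 24.5 and 23.3 in dKO DZ (adjusted p = 0.0231), and Canx at 66.7 and 65.6 and at 79.7 and 76.4 (adjusted p = 0.0156, limma). Edem1, which delivers misfolded glycoproteins to ERAD, was at 49.1 and 46.1 and at 55.2 and 53.7 (adjusted p = 0.0394, limma). Edem1 alone of the 6 had not passed in LZ, where it was at 53.9 and 55.5 in sKO and 57.1 and 57.9 in dKO.

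The 3 that fell in DZ belong to 3 roles. Sec11c was at 118 and 126 FPKM in sKO DZ and at 102 and 93.4 in dKO DZ (-0.32 ± 0.054; adjusted p = 0.0167, limma). Herpud1 was at 83.9 and 87.9 in sKO DZ and at 71.5 and 73.1 in dKO DZ (-0.25 ± 0.038; adjusted p = 0.0137, limma). Pdia4 was at 15.5 and 14.8 in sKO DZ and at 12.8 and 13.4 in dKO DZ (-0.20 ± 0.047; adjusted p = 0.0441, limma), the reverse of LZ, where it was at 23.5 and 23.9 in sKO and 27.3 and 26.8 in dKO. None of the 3 overlapped between genotypes, while 26.3% of all genes tested had both dKO DZ libraries below both sKO DZ libraries. Exons of Pdia4 share 14 bases with the microRNA gene Mir704 in the GENCODE annotation, so its fragments may be split between them.

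None of the 9 DZ calls held under every alternative and without each library in turn. Without dKO DZ replicate 1 or replicate 2, the median change of the set was 0.107 or 0.075, against 0.0086 or 0.018 over all genes. In either fit far fewer genes passed, in the set and over the whole table. For Hsp90b1 adjusted p was then 0.0691 and 0.0625, for Derl1 0.0749 and 0.0694, for Herpud1 0.1 and 0.0798 and for Sec11c 0.0593 and 0.101, by limma. Herpud1 and Sec11c were also lost without sKO DZ replicate 2. Canx was lost without any single DZ library of either genotype, and Atf6, Hyou1 and Edem1 without any single library other than the sKO LZ ones. The median of the set was 0.058 without sKO DZ replicate 1 and 0.1265 without replicate 2, against 0.0027 and 0.025 over all genes. After scaling to equal totals 12 genes of the set rose, as did 935 of the 10609 genes tested. The call for Pdia4 was lost without any single one of the 8 libraries (0.0541 to 0.226).

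**Figure D4:**
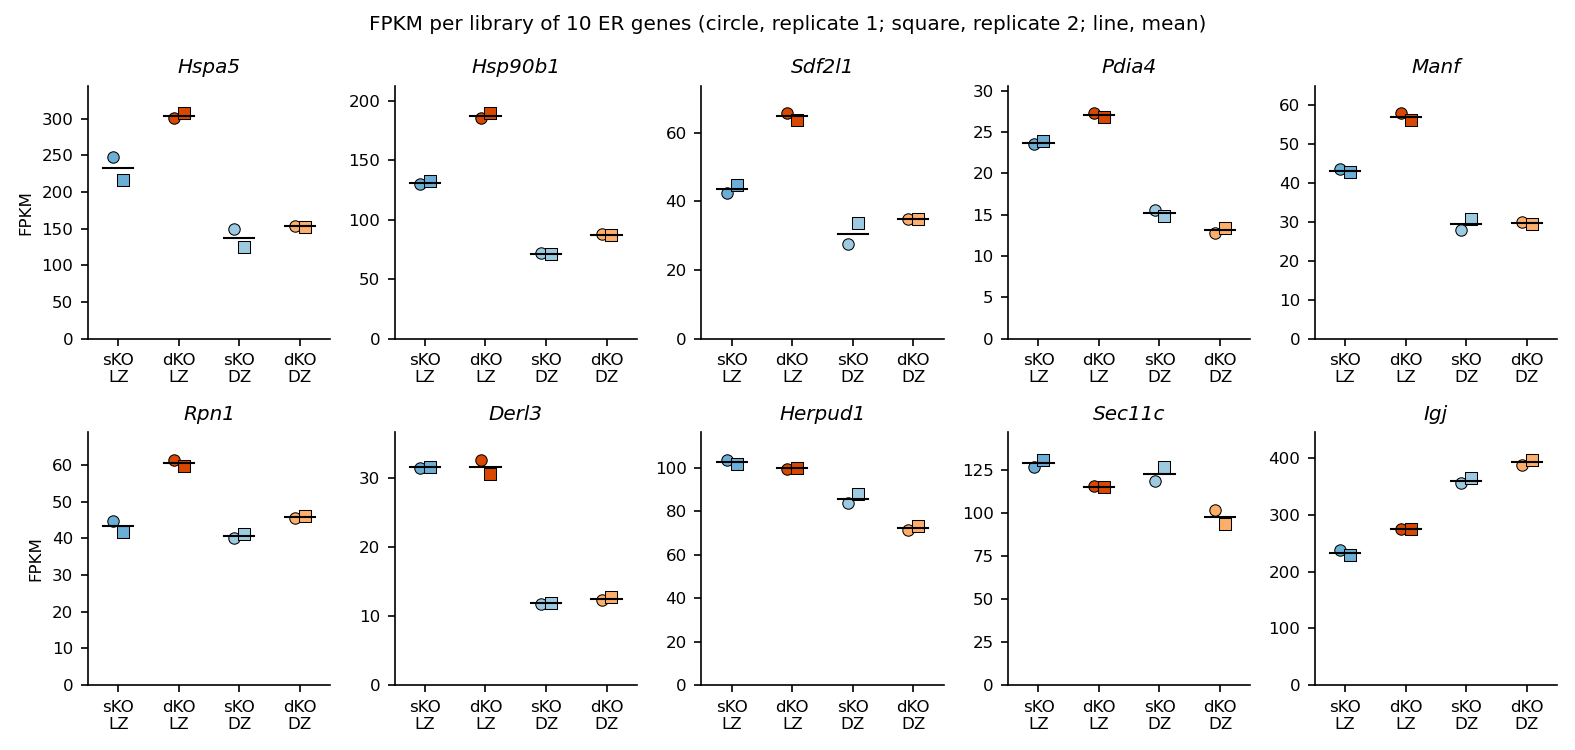
FPKM (vertical axis, from 0) of 10 genes in the 8 libraries; circles are replicate 1, squares replicate 2 and lines the mean of the 2. The dKO LZ libraries are highest for Hspa5, Hsp90b1, Sdf2l1, Pdia4, Manf and Rpn1, Derl3 is higher in both LZ groups, whose points overlap, Herpud1 and Sec11c are lowest in dKO DZ, and Igj is highest in dKO DZ.

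Whether the genotype difference itself depended on the zone was tested as an interaction. No gene of the 40 passed in either direction, against 0.0283% of all genes higher (3 genes) and 0% lower (limma). The LZ change minus the DZ change, here called the excess, was above 0 for 35 of the 40, against 5659 of the 10610 genes tested. It is signed and does not give the size of the effect. It was also above 0 for genes that fell more in DZ, such as Herpud1 (-0.042 in LZ and -0.25 in DZ) and Sec11c (-0.16 and -0.32). The median excess was 0.145 against 0.014 over all genes. It was 0.067 with quantile normalization and 0.111 with scaling to equal totals, against -0.0056 and -0.017 over all genes. At an unadjusted p under 0.05 (limma), 14 were higher and 0 lower, against 7.15% and 4.46% of all genes. Pdia4 had the largest excess (0.38 ± 0.066), followed by Manf (0.38 ± 0.073), Sdf2l1 (0.36 ± 0.13) and Rpn1 (0.31 ± 0.065), with adjusted p from 0.291 to 0.384 (limma). Manf was at 28.0 and 30.7 FPKM in sKO DZ and at 29.995 and 29.3 in dKO DZ, where the genotypes overlapped. A difference between zones in the genotype effect was therefore not shown for any of these genes, nor does the test show that the effects were equal.

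Between the zones of sKO cells, 23 of the 40 genes were higher in LZ and 3 lower, against 15.2% and 16.1% of all genes tested. In dKO cells 28 were higher and 2 lower, against 18% and 16.1%. The medians of the 40 were 0.23 and 0.36, against -0.0045 and 0.0065 over all genes. Folding genes led in both: 14 of 15 were higher in LZ in sKO and 14 of 15 in dKO, the exception being Dnajb9 in each. Scaled to equal totals, the share of higher among all called genes fell from 48.6% to 34.5% in sKO and from 52.9% to 33.8% in dKO.

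Derl3, a derlin gene of ERAD that is prominent in secretory cells, had the largest zone difference of the set in both genotypes. It was at 31.5 and 31.7 FPKM in sKO LZ, 32.7 and 30.6 in dKO LZ, 11.7 and 12.0 in sKO DZ and 12.3 and 12.7 in dKO DZ. LZ was thus 2.67-fold above DZ in sKO (1.34 ± 0.048; adjusted p = 5.91e-05, limma) and 2.53-fold in dKO (1.27 ± 0.048; adjusted p = 4.95e-05, limma), while the genotypes overlapped in LZ. Hsp90b1 was 1.83-fold higher in LZ in sKO and 2.15-fold in dKO, and Hspa5, at 149 and 125 in sKO DZ and 154 and 153 in dKO DZ, 1.69-fold and 1.98-fold. Pdia6, at 65.4 and 72.6 in sKO DZ and 79.3 and 77.5 in dKO DZ, was 1.65-fold and 1.97-fold higher in LZ. Pdia3, at 127 and 136 in sKO DZ and 150.4 and 146 in dKO DZ, was 1.57-fold and 1.74-fold higher. Pdia4 was 1.56-fold and 2.06-fold higher. In none of these genes did the zones overlap within a genotype. Of all genes tested, 32.7% in sKO and 37.7% in dKO also had both LZ libraries above both DZ libraries.

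The other roles were less uniform between zones. Of the OST genes, Ddost was higher in LZ in both genotypes (0.20 ± 0.047 in sKO and 0.44 ± 0.047 in dKO), and Rpn1 and Rpn2 passed in dKO (0.40 ± 0.046 and 0.35 ± 0.049) and not in sKO (adjusted p = 0.207 and 0.261, limma). Sec61a1 was at 43.1 and 45.6 FPKM in sKO DZ and at 45.1 and 44.6 in dKO DZ. It did not pass in sKO (adjusted p = 0.761) and was higher in LZ in dKO (0.23 ± 0.040; 0.00611, limma). Herpud1 was higher in LZ in both (0.26 ± 0.038 and 0.46 ± 0.038), as was Atf6 (0.28 ± 0.057 and 0.30 ± 0.057). The differences of the signal peptidase genes Spcs1, Spcs2 and Spcs3, higher in LZ in both genotypes, were between 0.17 and 0.31 in sKO and between 0.27 and 0.38 in dKO.

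Igj, Derl1 and Syvn1 ran the other way. Igj was at 356 and 365 FPKM in sKO DZ and at 388 and 398 in dKO DZ, so LZ was lower by -0.63 ± 0.038 in sKO and -0.51 ± 0.038 in dKO (adjusted p = 0.000201 and 0.000306, limma). Its 4 DZ libraries lay above all 4 LZ libraries. Derl1 was lower in LZ by -0.16 ± 0.037 in sKO and -0.14 ± 0.037 in dKO (adjusted p = 0.0192 and 0.0304, limma). Syvn1 was at 139.9 and 129 in sKO LZ, 129 and 128 in dKO LZ, 151 and 150.03 in sKO DZ and 142 and 139 in dKO DZ. It was lower in LZ in sKO (-0.16 ± 0.044; adjusted p = 0.0365, limma) and not past the threshold in dKO (-0.13 ± 0.044; 0.0666), where it passed without sKO LZ replicate 1 (0.0259) or 2 (0.0256). The call for Derl1 was lost in sKO without sKO LZ replicate 2 (0.073) or sKO DZ replicate 2 (0.0845), and in dKO without any single dKO library (0.104 to 0.147). That for Syvn1 was lost without any single library other than sKO LZ replicate 1 (0.0677 to 0.116).

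**Figure D5:**
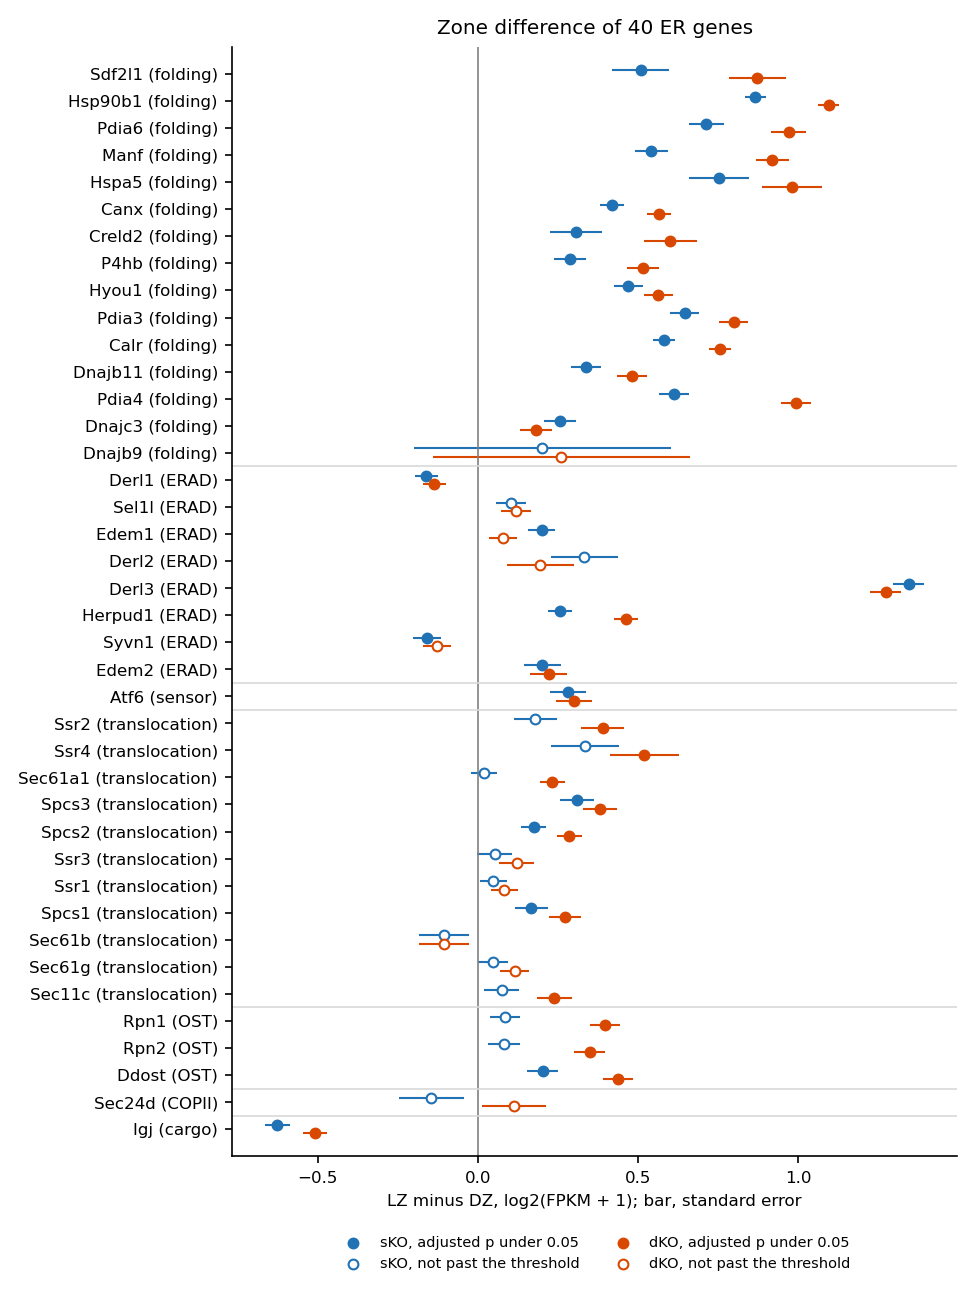
Difference between LZ and DZ on the log2(FPKM + 1) scale (horizontal axis, with the standard error) for the 40 tested genes in sKO (blue) and dKO (orange), grouped by role; filled points passed an adjusted p of 0.05. Derl3 lies furthest to the right at 1.34 and 1.27, and Igj furthest to the left at -0.63 and -0.51.

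Of the zone calls, 15 of 26 in sKO and 23 of 30 in dKO held under every alternative and without each library in turn. Those that held in sKO included Hspa5, Hsp90b1, Calr, Canx, Pdia3, Pdia4, Pdia6, Manf, Sdf2l1, Hyou1, Derl3, Herpud1, Dnajb11, Spcs3 and Igj. Atf6 was lost in sKO without sKO LZ replicate 2 (0.0527) or sKO DZ replicate 2 (0.0608), and in dKO without dKO LZ replicate 1 (0.0509) or dKO DZ replicates 1 (0.0525) and 2 (0.0526). Ddost was lost in sKO without sKO LZ replicate 2 (0.0823) or sKO DZ replicate 1 (0.0892), Spcs1 without any single library other than sKO DZ replicate 2 (0.0735 to 0.178), and Spcs2 without sKO LZ replicate 2 (0.0703) or either sKO DZ library (0.0709 and 0.0547). In dKO Spcs1 was lost without replicate 1 of LZ (0.0524) or DZ (0.0586). The myeloid sums above were higher in each of the 4 LZ libraries than in any DZ library, and their part in the zone differences was not tested.

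Set beside the promoter element, the 9 genes with an ERSE had a median genotype change of 0.36 in LZ with 6 higher and 0 lower, and the 23 tested genes with a promoter and no ERSE a median of 0.14 with 11 higher and 0 lower. Herpud1 and Dnajb11, which hold the shorter ERSE-II, are among these 23. In DZ the medians were 0.13 and 0.092. Between zones they were 0.58 and 0.20 in sKO and 0.76 and 0.27 in dKO. The ERSE genes were not alike: Derl3, Syvn1 and Dnajc3 did not pass in either genotype comparison. The 3 largest LZ changes outside them, in Sdf2l1, Rpn1 and Rpn2, were in genes whose promoter window held no exact match. Most genes with an ERSE were folding genes, and the 15 folding genes together had an LZ median of 0.345. Element and role were not separated here. These figures describe the genes and were not tested.

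Of 102 other genes of the secretory pathway, 96 were tested, and of these 21 rose and 5 fell in dKO LZ and 3 rose and 2 fell in dKO DZ. Between zones 16 were higher in LZ and 17 lower in sKO, and 29 and 17 in dKO. These are 21.9% and 5.21% of the 96 in LZ, 3.12% and 2.08% in DZ, 16.7% and 17.7% between zones in sKO and 30.2% and 17.7% in dKO, so the higher shares in LZ and DZ and both zone shares in sKO were near or below those of all genes. Their LZ median was 0.090.

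Among 14 tested sensors and transcription factors of the stress response, 1 rose and 1 fell in LZ (7.14% each, against 18.4% and 12.7% of all genes). Xbp1 was at 76.5 and 68.8 FPKM in sKO LZ, 78.4 and 77.6 in dKO LZ, 70.6 and 80.6 in sKO DZ and 69.7 and 70.9 in dKO DZ, with no difference past the threshold (adjusted p = 0.339 in LZ and 0.447 in DZ, limma). The gene total does not separate its spliced form. Eif2ak3, the PERK gene, fell from 34.0 and 30.5 in sKO LZ to 24.1 and 23.7 in dKO LZ (-0.42 ± 0.058; adjusted p = 0.00367, limma). It was higher in DZ, at 64.0 and 61.5 in sKO and 52.7 and 54.3 in dKO (genotype adjusted p = 0.0539, limma). Nfya, an NF-Y subunit gene, rose in LZ (0.16 ± 0.044; adjusted p = 0.035, limma), and Trib3 did not pass (0.37 ± 0.12; 0.0578). Atf4 and Ddit3, which act downstream of PERK, did not pass in LZ (0.077 and 0.358) or DZ (0.838 and 0.275). Irf4, a plasma cell factor gene, was at 10.96 and 11.6 in sKO LZ and 12.8 and 13.0 in dKO LZ (0.296), and fell in DZ from 4.05 and 3.01 to 1.99 and 2.35 (-0.51 ± 0.12; adjusted p = 0.0417, limma).

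Of 16 genes of targeting and translocation, 5 rose and 0 fell in LZ, led by the signal recognition genes Srp19 (0.28 ± 0.055) and Srpr (0.23 ± 0.045) and the tail-anchor insertion gene Get4 (0.26 ± 0.059), and 1 rose in DZ, Tram2 (0.54 ± 0.12). Srprb and Srpr did not pass in DZ (adjusted p = 0.057 and 0.0759, limma). Of 14 glycosylation genes 5 rose and 0 fell in LZ, with the catalytic OST gene Stt3a going from 43.0 ± 2.11 to 55.1 ± 0.745 FPKM (0.35 ± 0.050; adjusted p = 0.00394, limma), the glucosidase gene Mogs changing by 0.36 ± 0.065 and the OST gene Ost4 by 0.25 ± 0.055. None of the 14 passed in DZ, where Ganab, Stt3a and Mogs came closest (adjusted p = 0.121, 0.174 and 0.215, limma). Of 23 genes of ER to Golgi traffic, 5 rose and 0 fell in LZ. Among the 5 were the cargo receptor gene Lman1 (0.37 ± 0.056) and the p24 genes Tmed2 and Tmed10 (0.22 ± 0.047 and 0.21 ± 0.047). In DZ 0 passed, with Tmed2, Kdelr2 and Copb2 lowest in adjusted p (0.173, 0.206 and 0.26, limma). The higher shares in LZ were 31.25% for targeting and translocation, 35.7% for glycosylation and 21.7% for traffic. Of all genes 18.4% were higher and 12.7% lower, so the higher share of traffic genes was near the background. In DZ the 6.25% of targeting and translocation genes was near the 6.63% of all genes.

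Folding and redox genes outside the set were divided. Of 13 tested, 4 rose and 2 fell in LZ (30.8% and 15.4%, against 18.4% and 12.7% of all genes). Erp44, which retains unassembled proteins in the early secretory pathway, went from 120.3 ± 4.80 to 154 ± 0.293 FPKM (0.35 ± 0.042; adjusted p = 0.00235, limma) and also rose in DZ (0.19 ± 0.042; 0.0369). Ero1lb, an oxidase gene that recharges the disulfide isomerases, fell from 63.3 ± 1.27 to 47.8 ± 2.35 (-0.40 ± 0.044; adjusted p = 0.00198, limma), opposite to the isomerase genes Pdia3, Pdia4, Pdia6 and P4hb in the same libraries. Sdf2, the paralogue of Sdf2l1, fell from 27.9 ± 1.57 to 20.2 ± 0.361 (-0.44 ± 0.059; adjusted p = 0.0032, limma). In DZ Ero1lb and Sil1 did not pass (0.0649 and 0.113).

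Of 16 other ERAD genes, 1 rose and 2 fell in LZ and the same numbers in DZ. These are 6.25% and 12.5%, against 18.4% and 12.7% of all genes in LZ and 6.63% and 5.23% in DZ. Vcp, the ATPase that pulls substrates from the membrane, went from 125 ± 3.14 to 162 ± 1.98 FPKM in LZ and from 138 to 176 in DZ (0.38 ± 0.036 and 0.35 ± 0.036; adjusted p = 0.00133 and 0.00531, limma). The ubiquitin conjugating gene Ube2j1 fell in LZ and DZ (-0.20 ± 0.048 and -0.27 ± 0.048; adjusted p = 0.0224 and 0.0201, limma).

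Some levels carry a limit of counting. Exons of Derl2, Hsp90b1, Manf, Pdia3, Pdia6, Spcs1, Spcs3 and Syvn1 overlap those of another gene of the table in GENCODE, mostly on the opposite strand, Syvn1 with Mrpl49 (up to 36.2 FPKM) and Derl2 with Mis12 (up to 26.8). Whether strand was used in counting is not given in the sources used here. Calr and Spcs2 have a named pseudogene, with which fragments may be shared.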

How the data were processed

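The deposited table gives FPKM per gene, made by the authors with TopHat2 2.0.8 and Cufflinks 2.1.1 on mm9, per the submitters' processing notes; read counts, and so depth and counting error, are not given in it. The row that holds library codes instead of a gene was dropped, and all 8 columns matched a sample. The 41 genes, the other gene lists and the tests were chosen with earlier results of these data known. All 8 libraries entered 1 limma 3.58.1 fit (R 4.3.3) of log2(FPKM + 1) on 4 group means with a variance trend, over the 10610 of 23234 genes that reached 1 FPKM in 2 or more libraries. P-values were adjusted by Benjamini-Hochberg over all tested genes in each comparison, with a threshold of 0.05. Fold changes on this scale understate those of low genes. The fit was tested on simulated data. Named by rule with every library's value were the 6 largest rises and 4 largest falls past the threshold in each genotype comparison, 5 and 5 between zones in sKO, 3 and 3 in dKO, and Hspa5, Ern1, Atf6, Derl3, Herpud1, Sec61a1, Manf and Igj. Outside the set these were the 3 lowest p-values of each list in the genotype comparisons, plus Xbp1, Atf4, Ddit3, Eif2ak3, Prdm1 and Irf4. Not every gene that the rule names is reported here. Ppp1r15a was named after its values were seen. Promoter sequences came from RefSeq GRCm38.p6 and exon overlaps from GENCODE M21, and protein sequences were not analysed here. Alternatives changed the pseudocount, filter, scaling, variance trend, libraries fitted and replicate block.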

Additional observations from a re-analysis of the deposited data

How the results depend on the processing

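The count of genes of the set that rose in dKO LZ was 19 to 24 under the other settings and 15 to 23 with 1 library left out at a time. The count that fell in LZ was 1 with upper quartile scaling, 3 with quantile normalization and 1 with scaling to equal totals. In DZ the count that rose was 2 with only the libraries compared, 12 with scaling to equal totals, 3 without both sKO replicate 1 libraries, and 0 to 8 with 1 library left out. The count that fell was 0 with only the libraries compared and 0 to 2 with 1 library left out. Lower genes in sKO LZ against DZ numbered 1 with only the libraries compared and 1 to 3 with 1 library left out. In dKO they numbered 1 without a variance trend, 1 with the replicate block, 4 with scaling to equal totals and 1 to 3 with 1 library left out. Higher genes numbered 17 to 23 in sKO and 23 to 28 in dKO with 1 library left out. With the replicate block, 23 rose in LZ, and 5 rose and 2 fell in DZ. Deviations of same-numbered libraries correlated at -0.108 to 0.124, so the numbers were not taken to pair the libraries. No called gene of the set changed sign under any setting run, while some genes not called did: Dnajb9 in LZ went from -0.27 to 0.24 without sKO LZ replicate 1. With upper quartile scaling, the all-gene median in LZ went from 0.022 to -0.022 and higher genes were 48.1% (LZ) and 45.8% (DZ) of called genes, below the lower ones. Equal-total scaling and the omission of both sKO replicate 1 libraries were chosen after seeing the data. With 2 libraries a group, leaving 1 out leaves a lone library that is assumed to vary like the other groups. The number of calls over all genes moved with the library left out too, so the counts above are not particular to the set. The depth is not given in the file, so no counting interval was computed.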

Other observations

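The ERSE match in the promoter of Creld2 was at the same genome position as that of its neighbour Alg12, a mannosyltransferase gene of N-glycan assembly. Alg12 was at 12.0 FPKM in sKO LZ and 11.1 in dKO LZ as means of 2 libraries (-0.10 on the log2 scale, adjusted p = 0.478, limma), while Creld2 was at 32.9 and 42.4. Of the 6 tested genes outside the set whose promoter held an ERSE, 1 rose (Hnrnpa3) and 1 fell (Ero1lb) in dKO LZ, with a median change of 0.073.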
